A study of Glycine max with 18 samples.

Results

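The 6 libraries described here came from soybean embryonic axes that germinated in water alone, 3 harvested at 12 hours after imbibition (HAI) and 3 at 24 HAI, out of the 18 libraries of the series. They were chosen by their labels: the control condition at those 2 time points, written 12C and 24C. All seeds were of the cultivar BRS 284 and germinated on wet cotton under a light and dark cycle. Axes were cut from the cotyledons before RNA extraction, each sample pooled seeds from several plates, and the study's methods state 3 independent biological replicates per condition. The other 4 groups were control axes at 36 HAI and axes at 12, 24 and 36 HAI that received 200 µM paclobutrazol (PBZ), an inhibitor of gibberellin biosynthesis, in the same water. No transgene or mutation is stated for any group. Expression was given as RPKM, the number of reads on a gene scaled to its transcript length and to the mapped reads of the library, for 56044 genes. Of these, 31724 had a mean of at least 1 RPKM in 12C or 24C and were tested.

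A dry seed holds messenger RNAs and proteins laid down during maturation, among them late embryogenesis abundant (LEA) proteins and small heat shock proteins that protect cells in the dry state, and the oleosins that coat oil bodies. After water uptake these stored messages are degraded while the axis transcribes genes for metabolism, wall loosening and, later, cell division. Germination is complete when the radicle, the embryonic root, elongates through the seed coat. Gibberellin promotes this step and abscisic acid restrains it. Between 12 and 24 HAI the study followed axes up to about the time of radicle emergence.

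Transcript levels in 24C were compared with those in 12C as log2(RPKM + 0.1), and a gene is said to have risen or fallen where the limma adjusted p was at most 0.05 and the log2 change at least 1 in size. On this scale the change of a gene near 0 RPKM is understated. By that rule 8727 genes changed, 27.5% of those tested. There were 5865 that rose, 18.5% of those tested, and 2862 that fell, 9.02%. Rises thus made up 67.2% of the calls, but only 52.0% (4435 up and 4087 down) once the libraries were forced to one common distribution by quantile normalization. The median change over all tested genes was 0.08 on the log2 scale, with the middle of the distribution between -0.44 and 0.74 at its quartiles. The median standard error of a change was 0.14. Rises were also larger than falls: 2483 genes rose and 768 fell by at least 2 on the log2 scale, and 291 rose and 63 fell by at least 4. Groups that do not overlap were common in these data. For 70.5% of tested genes the 3 values of 12C lay wholly above or below the 3 values of 24C. Most genes named below were chosen among called genes with such separation, so it is no result for them. Most changes continued in direction: among the genes that rose, 4493 had a higher mean at 36 HAI than at 24 HAI, and among those that fell, 2117 had a lower mean at 36 HAI. These last counts are descriptions over means, without a test.

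**Figure D1:**
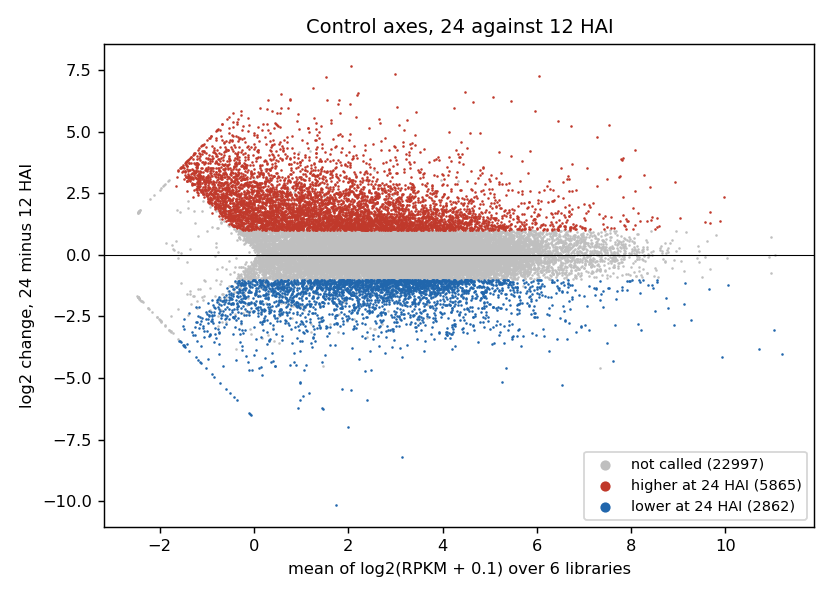
Change from 12 to 24 HAI in control axes against level, one point per tested gene. The horizontal axis is the mean log2(RPKM + 0.1) over the 6 libraries and the vertical axis is the log2 change, 24 HAI minus 12 HAI, with the 5865 genes that rose in red, the 2862 that fell in blue and the rest in grey. More genes lie above 1 than below -1, while the single largest changes are falls.

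The filter on low values shaped these counts. Of the genes tested, 27506 reached 1 RPKM in both groups, 3108 only at 24 HAI and 1110 only at 12 HAI. The gene nearest inside the limit had a higher group mean of 1.000027 RPKM and the gene nearest outside 0.999787. There were 45 genes that rose from 0 in all 3 libraries of 12C, and 24 that fell to 0 in all 3 of 24C. No fold is given for those. Called genes lay on every chromosome, from 25.7% of tested genes on chromosome 14 to 29.4% on chromosome 12.

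The expressed transcripts were redistributed. The genes that rose held 5.35%, 6.17% and 5.30% of all RPKM in replicates 1, 2 and 3 of 12C, and 20.2%, 20.8% and 20.8% in those of 24C. The genes that fell held 25.8%, 15.7% and 23% in 12C against 5.11%, 4.29% and 5.12% in 24C. These shares were chosen by the change itself and only describe its weight. They also show replicate 2 of 12C apart from its 2 companions on the side of the falls. RNA from whole axes was measured, so fewer cells of a type and less RNA per cell cannot be told apart in any value given here.

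The libraries were not alike at 12 HAI. RPKM keeps no read total, but the spacing of the lowest values put depth relative to replicate 1 of 24C at 1.26, 2.85 and 0.979 for replicates 1, 2 and 3 of 12C, and at 1.24 and 1.71 for replicates 2 and 3 of 24C. Pearson's r of log2(RPKM + 0.1) between libraries of 1 group was 0.958 to 0.973. On the RPKM scale it was 0.985 to 0.989 among the libraries of 24C, but at 12C only 0.445 between replicates 1 and 2 and 0.564 between replicates 2 and 3, against 0.987 between 1 and 3. A set of 43 nuclear-genome genes that the study matched to chloroplast or mitochondrial genes, called organelle-like below, took 0.442%, 0.0843% and 0.331% of RPKM in 12C and 0.0252% to 0.0357% in 24C. Single transcripts of replicates 1 and 3 were larger still. Glyma.01G163400, which has no description here, had 29059, 1612 and 18729.8 RPKM in 12C and 556, 498 and 711 in 24C, so that it was 4.70% of all RPKM in replicate 1. The main lists, and several genes, are also given from fits without 1 of these libraries or with replicate 2 as the only library of 12C. In the latter fit the single library is assumed to vary like those of 24C.

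Genes could be named only in part. Descriptions were at hand for 1115 genes of chromosome 1 and for 643 elsewhere that the study's tables list, mainly for their response to PBZ or their hormone, wall or organelle role, in comparisons that include these control libraries. Of the tested genes described elsewhere 71.2% were called, against 27.7% of the tested genes of chromosome 1. A gene list below that draws on the former is therefore no independent evidence of its direction, and for most lists the count on chromosome 1 alone is set beside it.

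The transcripts of the maturation programme fell. LEA proteins, dehydrins and seed maturation proteins protect membranes and proteins during drying. Of the 14 described here, all tested, 11 fell and 1 rose, beside 9.02% and 18.5% of all genes. Their median log2 change was -2.82 against 0.08 over all genes. Among them Glyma.16G031300, a LEA protein, had 568, 571 and 734 RPKM in 12C and 34.7, 38.2 and 107 in 24C. The groups were far apart, although replicate 3 of 24C stood above its companions. The log2 change was -3.57 ± 0.39 (SE; adjusted p = 0.000166) and -4.08 without that replicate. Glyma.20G147600, a seed maturation protein, had 140.2, 126 and 172 RPKM against 8.10, 9.59 and 32.3, a change of -3.40 ± 0.47 (adjusted p = 0.000475). The same replicate was again the high one, and without it the change was -4.02.

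Dehydrins, the hydrophilic LEA proteins that bind water and membranes, fell too. Glyma.07G090400 had 129, 129 and 164 RPKM in 12C and 8.39, 10.1 and 34.7 in 24C (-3.28 ± 0.47, adjusted p = 0.000614). The LEA-domain gene Glyma.17G040800 had 174, 197 and 212 RPKM against 11.8, 14.6 and 49.1 (-3.24 ± 0.47, adjusted p = 0.000616). In both, every library of 12C exceeded every library of 24C. An EM-like protein of the GEA6 type, a class of small LEA proteins of the mature embryo in Arabidopsis, was the most abundant described gene that fell: Glyma.03G056000 had 1281, 1434 and 1163 RPKM in 12C and 124, 131 and 356 in 24C (-2.85 ± 0.37, adjusted p = 0.000383). Its mean at 36 HAI was 32.5 ± 9.63 RPKM (SD, n = 3).

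The exception in the LEA list differed in kind. Glyma.19G198900, described as NDR1/HIN1-like, a family known from pathogen responses in Arabidopsis, rose from 1.56, 2.76 and 1.87 RPKM to 18.2, 17.8 and 17.3 (3.08 ± 0.19, adjusted p = 1.5e-05). Chromosome 1 held 2 of the LEA genes, and 1 of them fell: Glyma.01G174100 had 3.29, 3.97 and 5.68 RPKM in 12C and 1.35, 0.465 and 1.18 in 24C, a change of -2.08 ± 0.38 (adjusted p = 0.00191). Both genes of this paragraph were singled out after their values were seen.

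The 3 oil body genes all fell, beside 9.02% of all genes, with a median of -3.02. Oleosins stabilise the oil droplets that feed the seedling, and the oleosin Glyma.16G071800 had 125, 148 and 147 RPKM in 12C and 16.2, 11 and 27.9 in 24C (-3.02 ± 0.29, adjusted p = 9.11e-05). The oleosin Glyma.05G004300 had 105, 167 and 191 RPKM against 11.2, 9.30 and 34.3 (-3.28 ± 0.47, adjusted p = 0.000575). A peroxygenase, an enzyme of oil bodies that oxidises fatty acids, went the same way: Glyma.10G189900 had 403, 333 and 323 RPKM in 12C and 38.4, 36.6 and 80.3 in 24C (-2.86 ± 0.28, adjusted p = 0.000101). Both groups were well separated in all 3.

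Small heat shock proteins, chaperones that hold unfolding proteins and accumulate in maturing seeds, fell in all 16 genes described, beside 9.02% of all genes. The median was -2.68, with changes between -3.17 and -1.43. The most abundant of the 4 named by the largest changes was Glyma.14G063700, with 415, 366 and 414 RPKM in 12C and 46.9, 40.3 and 59.5 in 24C (-3.04 ± 0.14, adjusted p = 5.82e-06). Its neighbour Glyma.14G063800, a class I protein, had 299, 310.0 and 393 RPKM against 52.6, 35.8 and 49.4 (-2.87 ± 0.17, adjusted p = 1.12e-05). Glyma.08G068700, another class I protein, had 80.1, 53.4 and 76.2 RPKM against 6.19, 6.44 and 10.9 (-3.17 ± 0.24, adjusted p = 3.21e-05). None of these groups overlapped. These genes share a family description. How alike their sequences are, and how far their uniquely mapped reads could be assigned to 1 gene, was not tested. The single member on chromosome 1, Glyma.01G106800, had 111, 102 and 115 RPKM against 25.2, 27.4 and 44.8 (-1.8 ± 0.20, adjusted p = 0.000178), and its mean at 36 HAI was 73.1 ± 38.6 RPKM (SD, n = 3).

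Larger chaperones did not move as a block. Of 6 tested HSP70 and HSP90-related genes 2 fell and 1 rose, beside 9.02% and 18.5% of all genes. Of the 4 on chromosome 1 1 fell. Of the 6, 5 reached 1 RPKM in both groups, and the 1 that rose could be tested only through 24 HAI. The HSP70 gene Glyma.02G205600 had 119, 135 and 166 RPKM in 12C and 29.2, 20.5 and 31.7 in 24C (-2.38 ± 0.18, adjusted p = 3.55e-05). Another HSP70 gene, Glyma.13G224000, was low and moved the other way, from 0.380, 0.0848 and 0.2 RPKM to 1.85, 2.79 and 2.66 (3.064 ± 0.39, adjusted p = 0.000338).

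Replicate 3 of 24C kept the most of the maturation transcripts. It was the highest library of its group for 11 of 14 LEA genes, 3 of 3 oil body genes and 14 of 16 small heat shock genes, but for only 965 of the 2862 genes that fell. The mean log2(RPKM + 0.1) over the LEA genes was 5.36, 5.56 and 5.66 in replicates 1, 2 and 3 of 12C and 3.18, 3.102 and 4.31 in those of 24C. For the oil body genes the same mean was 7.44, 7.66 and 7.71 against 4.26, 3.97 and 5.41. For the small heat shock genes it was 5.64, 5.32 and 5.71 against 2.79, 2.66 and 3.43. Without replicate 3 of 24C the medians were -3.34 for LEA, -3.37 for oil body and -2.96 for small heat shock genes, and 11, 3 and 16 of them still fell. Fitted against replicate 2 of 12C alone, 9 of the LEA, 3 of the oil body and 15 of the small heat shock genes fell.

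**Figure D2:**
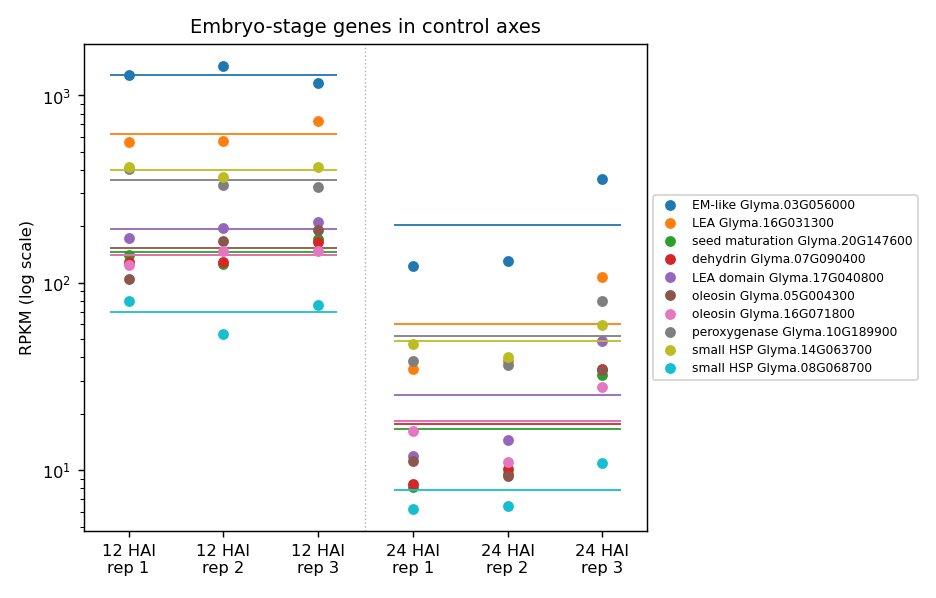
RPKM of 10 genes that fell, in each of the 6 control libraries, on a log scale. Points are single libraries and horizontal lines are group means at 12 and 24 HAI. For each gene all points at 12 HAI lie above those at 24 HAI, which the choice of genes required. For the LEA and oil body genes replicate 3 is the highest point at 24 HAI.

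Other abundant transcripts fell too. Glyma.16G082100, annotated as a perakine reductase, an aldo-keto reductase, had 1129.7, 829.6 and 1432 RPKM in 12C and 305, 240.0 and 292 in 24C (-1.99 ± 0.20, adjusted p = 0.000107). A defensin-like protein, a small cysteine-rich antimicrobial peptide, Glyma.05G198000, had 234, 139 and 186 RPKM against 10.4, 10.2 and 26.4 (-3.68 ± 0.37, adjusted p = 0.000106). Neither pair of groups overlapped. Glyma.17G027400, which has no description here and was singled out after its values were seen, was the largest transcript of replicate 2 of 12C, with 5736, 5895 and 6331 RPKM in 12C and 782, 574 and 859.7 in 24C (-3.04 ± 0.17, adjusted p = 9.4e-06). Its 3 libraries at 12 HAI were close together, unlike those of Glyma.01G163400.

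Among the 10 largest described falls were 2 glycine-rich proteins, which fell to near the floor of detection. No count was made for the class. Glyma.07G176000 had 12.0, 9.90 and 13.4 RPKM in 12C and 0, 0.882 and 0.277 in 24C (-5.14 ± 0.71, adjusted p = 0.000497). Glyma.20G011400 had 5.45, 17 and 12.4 RPKM against 0.581, 0.928 and 0 (-4.68 ± 0.84, adjusted p = 0.00178). Every library of 12C was above every library of 24C in both.

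Glutathione S-transferases, which conjugate glutathione to reactive compounds, were split: 3 of 9 tested fell and 2 rose, beside 9.02% and 18.5% of all genes. On chromosome 1 alone 2 of 3 rose and none fell. Of the 9, 7 reached 1 RPKM in both groups. Glyma.08G175200, of the tau class, had 421, 321 and 405 RPKM in 12C and 113, 93.1 and 128 in 24C (-1.78 ± 0.15, adjusted p = 4.74e-05). Glyma.01G040200, also of the tau class, went from 0, 0.275 and 0.169 RPKM to 3.25, 7.25 and 6.19 (4.63 ± 0.52, adjusted p = 0.000193). A further tau-class gene, Glyma.08G118700, went from 2.14, 2.38 and 1.26 RPKM to 0.519, 0.277 and 0.553 (-1.88 ± 0.34, adjusted p = 0.00189).

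Organelle-like transcripts were lower in 24C, but their values at 12 HAI depended on the library. The study drew these genes from those that were higher under PBZ than in control at 24 HAI and lower at 36 HAI, so low values in 24C were part of the choice and the counts below are a description only. Of the 43 genes 36 fell and none rose, beside 9.02% and 18.5% of all genes, with a median of -2.75. The median was -3.19 over the 17 mitochondrial genes, which all fell, and -2.10 over the 26 chloroplast genes, of which 19 fell. In all 43, replicate 2 was the lowest library of 12C. Glyma.17G185800, a copy of the mitochondrial nad5 gene for a subunit of respiratory complex I, had 151, 19.8 and 107 RPKM in 12C and 4.65, 4.43 and 5.47 in 24C (-3.80 ± 0.66, adjusted p = 0.00152). Glyma.05G073600, a copy of chloroplast psbA for a photosystem II core protein, had 30.5, 1.62 and 30.2 RPKM against 0.869, 0.695 and 0.338 (-4.07 ± 1.04, adjusted p = 0.00963). At 12 HAI replicates 1 and 3 were many times higher than replicate 2, and replicate 2 was still above 24C in both genes, although against it alone the call of the psbA copy was lost (-1.30, adjusted p = 0.102).

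Fitted against replicate 2 of 12C alone, 34 of the 43 organelle-like genes were tested and 14 fell, none of them among the 17 chloroplast genes tested. Leaving out replicate 3 of 12C left 23 that fell and leaving out replicate 1 left 25, while leaving out replicate 2 gave 42 with a median of -3.68, and quantile normalization gave 41. The chloroplast count went from 19 to 6 without replicate 3 of 12C, 8 without replicate 1 of 12C, 12 without replicate 1 or replicate 3 of 24C, and 14 without replicate 2 of 24C, but 25 without replicate 2 of 12C and 24 under quantile normalization. Under PBZ the same 43 genes had a median change of 0.70 from 12 to 24 HAI, and 14 rose, all of them chloroplast genes, a difference from control that the choice of the list favours. The part of organellar RNA in the poly(A) libraries in these values was not tested.

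The pattern of replicates 1 and 3 over replicate 2 reached further than the organelle-like genes. There were 256 tested genes with both replicates at least 4 times replicate 2 at 12 HAI, while in 181 genes replicate 2 was that much higher than both. Of the 256, 69 fell and 95 rose from 12 to 24 HAI, beside 9.02% and 18.5% of all genes. The 69 that fell took 11.3%, 0.669% and 7.48% of all RPKM in replicates 1, 2 and 3 of 12C and 0.225% to 0.286% in 24C. Glyma.01G163400 is one of the 69, as are Glyma.09G164000, with 18609.8, 1033 and 13222 RPKM in 12C and 440.4, 421 and 484 in 24C, and Glyma.11G218300, with 12697, 655 and 8223 against 245, 193 and 272. Neither has a description here, and both were singled out after their values were seen. In these 3 the lowest library of 12C still exceeded the highest of 24C.

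Replicate 2 was also the lowest library of 12C in the 3 largest falls of all genes. Glyma.12G040700, without a description, had 356, 32.6 and 124 RPKM in 12C and under 0.0001 RPKM in every library of 24C (-10.14 ± 0.73, adjusted p = 2.61e-05). Glyma.05G157100, also without one, had 250.5, 64.1 and 215 RPKM against 0.0155, 0.000457 and 11.6 (-8.20 ± 1.69, adjusted p = 0.00356), and Glyma.01G136800, a copy of a subunit gene of the NADH dehydrogenase, had 84.1, 19.2 and 55.8 against 0, 4.22 and 0 (-7.0 ± 1.39, adjusted p = 0.00295). Every library of 12C still exceeded every library of 24C, but against replicate 2 alone the calls of the last 2 genes were lost, at changes of -6.96 (adjusted p = 0.119) and -5.78 (adjusted p = 0.111). A purple acid phosphatase, an enzyme that releases phosphate, was another: Glyma.06G028100 had 56.4, 1.5 and 20.7 RPKM in 12C and 0.512, 0.281 and 0.821 in 24C (-4.36 ± 1.14, adjusted p = 0.011), and was not called against replicate 2 alone (-1.42, adjusted p = 0.097).

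Ribosomal protein genes, the parts of the protein synthesis machinery, also depended on the library. Of 48 tested 10 fell and 2 rose, beside 9.02% and 18.5% of all genes, with a median of -0.50. Of the 20 on chromosome 1, however, only 1 fell and 1 rose, with a median of -0.01. The 10 falls became 2 without replicate 3 of 12C, 4 without replicate 1 of 12C, 6 without replicate 1 of 24C, 15 without replicate 2 of 12C or under quantile normalization, and 1 against replicate 2 alone. Of the 10, 6 are described by names of the bacterial and organellar ribosome (L2, L16, S4, S7 and S19), such as Glyma.19G053400 (L16, -2.82) and Glyma.01G153400 (chloroplast S4, -2.59), 2 genes singled out after their values were seen, and in each of the 6 replicate 2 was the lowest library of 12C. All 4 ribosome biogenesis genes, nucleolar proteins that make and process ribosomal RNA, stayed below the limit of 1 with changes from -0.94 to -0.07. Of 6 proteasome genes 1 rose, close to the 18.5% of all genes.

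The largest rise was that of Glyma.08G200000, without a description, from 0.0526, 0.184 and 0.474 RPKM to 54.2, 63.9 and 59.7 (7.66 ± 0.42, adjusted p = 8.76e-06). Glyma.15G271000, a beta glucosidase of the BGLU17 type, an enzyme that frees glucose from conjugates, went from 0.372, 0.527 and 0.717 RPKM to 83.4, 119.6 and 102 (7.34 ± 0.22, adjusted p = 1.65e-06). Glyma.14G195000, without a description, went from 3.42, 7.35 and 5.66 RPKM to 813, 782 and 833 (7.25 ± 0.24, adjusted p = 2.17e-06). Replicates of 24C were close together in all 3, and the means at 36 HAI were higher again, at 269 ± 29.9, 658 ± 184 and 1285 ± 266 RPKM (SD, n = 3). A second BGLU17 gene next to the first, Glyma.15G270900, went from 0.342, 0.554 and 0.248 RPKM to 19.3, 23.6 and 19.6 (5.49 ± 0.24, adjusted p = 4.4e-06).

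Among the 10 largest described rises were 3 enzymes that act on phenolic compounds. A spermidine hydroxycinnamoyl transferase, which joins phenolic acids to the polyamine spermidine, Glyma.18G113100, went from 0.136, 0.120 and 0.130 RPKM to 16.1, 38.3 and 24.0 (6.76 ± 0.29, adjusted p = 4.6e-06). A peroxidase, a class that can cross-link phenolics in the wall, Glyma.06G275900, went from 0.0370, 0.0320 and 0.102 RPKM to 14.4, 14.4 and 13.5 (6.52 ± 0.23, adjusted p = 2.42e-06). A catechol oxidase, which oxidises phenols, Glyma.13G183000, went from 0.0327, 0.0427 and 0.0431 RPKM to 7.81, 13.1 and 12.4 (6.29 ± 0.26, adjusted p = 4.03e-06). All 3 were near the floor in every library of 12C and present in every library of 24C.

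Further rises among those 10 were in 4 genes of other kinds. The acyltransferase Glyma.10G159600 rose by 6.32 ± 0.23 to 16, 15.7 and 13.4 RPKM, and the glucosyltransferase UGT85A3, Glyma.14G175800, by 5.91 ± 0.26 to 7.08, 10.9 and 10.2. Glyma.10G217100, described as UPBEAT1, a basic helix-loop-helix factor that sets the balance between division and elongation in the Arabidopsis root through peroxidase genes, went from 0, 0 and 0.169 RPKM to 9.54, 8.41 and 7.81 (5.96 ± 0.40, adjusted p = 2.06e-05). Glyma.08G269600, related to strictosidine synthase, went from 0, 0 and 0.0501 RPKM to 5.51, 3.99 and 4.61 (5.38 ± 0.31, adjusted p = 1.04e-05). None of these had overlapping groups, which the choice of named genes required.

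**Figure D3:**
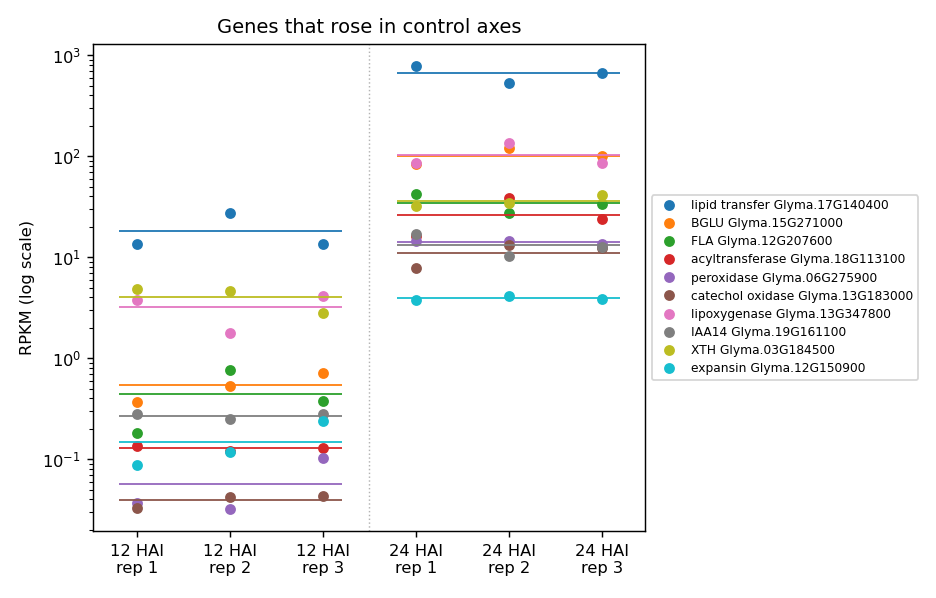
RPKM of 10 genes that rose, in each of the 6 control libraries, on a log scale. Points are single libraries and horizontal lines are group means at 12 and 24 HAI. For each gene all points at 24 HAI lie above those at 12 HAI, which the choice of genes required.

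Lipid transfer proteins, small secreted proteins that carry lipids to the cuticle and wall, gave some of the most abundant transcripts that rose. Of 14 tested 9 rose and none fell, beside 18.5% and 9.02% of all genes, with a median of 2.51. Only 9 of the 14 reached 1 RPKM in both groups. Glyma.17G140400 went from 13.6, 27.7 and 13.5 RPKM to 779.9, 529 and 669.9 (5.24 ± 0.28, adjusted p = 8.63e-06). Glyma.17G111100, also described as a hydrophobic seed protein, went from 57.0, 86.4 and 47.8 RPKM to 585, 462 and 544 (3.09 ± 0.21, adjusted p = 2.01e-05). Both genes are described by a superfamily that also holds inhibitors and seed storage 2S albumins, so lipid transfer by either is not given. Both were among the 3 described rises with the highest level, and in both replicate 2 was the highest library at 12 HAI and the lowest at 24 HAI. On chromosome 1 only 1 of 4 tested genes rose, with a median of -0.62.

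Lipoxygenases oxidise fatty acids to hydroperoxides, and all 4 described genes rose, beside 18.5% of all genes. None of the 4 lies on chromosome 1, so all were described through the study's lists. Any lipoxygenase gene without a description is not covered. Glyma.13G347800 went from 3.77, 1.78 and 4.13 RPKM to 84.8, 136 and 85.3 (4.99 ± 0.32, adjusted p = 1.7e-05). Glyma.07G006900 went from 0.337, 0.0248 and 0.0713 RPKM to 4.14, 5.67 and 4.28 (4.49 ± 0.46, adjusted p = 0.000116), and Glyma.07G034800 from 1.19, 0.0103 and 0.0294 to 3.25, 5.25 and 3.46 (3.92 ± 0.87, adjusted p = 0.00497). Glyma.04G105900 was listed at 0 in all of 12C and had 4.14, 4.62 and 2.90 RPKM in 24C (adjusted p = 1.22e-05), so no fold is given. Only the first passed the filter in both groups. The other 3 passed through 24 HAI alone and had to differ in that direction.

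Several groups of cell wall genes rose. Of 8 arabinogalactan and extensin genes, which encode glycoproteins of the wall and plasma membrane, 7 rose, with a median of 2.198. On chromosome 1 all 4 rose, with a median of 1.72. Rises made up 18.5% of all genes, and only 5 of the 8 reached 1 RPKM in both groups. Glyma.01G025100, related to AGP10, went from 75, 103 and 95.3 RPKM to 290.5, 274 and 288 (1.65 ± 0.12, adjusted p = 2.88e-05). Glyma.01G190900, the lysine-rich AGP18, went from 5.72, 5.94 and 3.48 RPKM to 58.6, 59.4 and 58.5 (3.56 ± 0.19, adjusted p = 8.54e-06). Glyma.02G072400, AGP14, went from 36.7, 32.1 and 19.4 RPKM to 199.8, 144 and 185 (2.61 ± 0.23, adjusted p = 6.55e-05). The libraries of 24C were all higher than those of 12C. The fasciclin-like protein FLA9, Glyma.12G207600, which carries an adhesion domain, had the largest change of the list, from 0.181, 0.762 and 0.379 RPKM to 41.9, 27.7 and 33.8 (6.13 ± 0.38, adjusted p = 1.4e-05).

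Expansins loosen the wall without cutting it, and all 4 tested rose, 2 of 2 on chromosome 1, beside 18.5% of all genes. Only 1 of the 4 reached 1 RPKM in both groups, and the others could be tested only through 24 HAI. Glyma.12G150900, expansin A12, went from 0.0887, 0.117 and 0.237 RPKM to 3.74, 4.18 and 3.84 (4.07 ± 0.28, adjusted p = 2.36e-05). Glyma.01G050100, expansin A1, was the abundant one, with 23.2, 22.3 and 14.5 RPKM in 12C and 40.3, 46.4 and 36.7 in 24C (1.06 ± 0.18, adjusted p = 0.00148). Its change is close to the limit of 1, and without replicate 3 of 12C it was 0.85.

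A xyloglucan endotransglucosylase/hydrolase, which cuts and rejoins xyloglucan chains as the wall extends, Glyma.03G184500, went from 4.81, 4.59 and 2.79 RPKM to 32.1, 34.8 and 41.4 (3.15 ± 0.21, adjusted p = 1.85e-05). The aquaporin PIP2;4, a water channel of the plasma membrane, Glyma.12G075400, went from 6.01, 2.03 and 2.11 RPKM to 20.8, 11.8 and 15.9 (2.37 ± 0.41, adjusted p = 0.00147). The libraries of 24C were higher in both, with more spread for the aquaporin. Of 3 described genes of the first kind only this 1 was tested. Of 2 tested aquaporins 1 rose, beside 18.5% of all genes. The other, on chromosome 1, was more abundant, with 79.1, 80.5 and 89.5 RPKM in 12C and 186, 142 and 153 in 24C. Its change of 0.94 was short of the limit of 1.

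Pectin genes moved both ways: 3 of 7 tested rose and 2 fell, and on chromosome 1 1 of 4 rose and 2 fell. The shares of all genes were 18.5% and 9.02%, and only 4 of the 7 reached 1 RPKM in both groups. Glyma.01G030900, a polygalacturonase of the BURP-domain class, went from 1.91, 2.88 and 3.00 RPKM to 12.2, 13.6 and 14.5 (2.35 ± 0.18, adjusted p = 3.43e-05). Glyma.01G211300, a pectin methylesterase inhibitor family member, went from 7.31, 7.69 and 8.52 RPKM to 1.23, 1.04 and 1.93 (-2.45 ± 0.22, adjusted p = 6.68e-05). Another member of that family, Glyma.09G232000, was listed at 0 in all of 12C and had 2.23, 2.71 and 3.43 RPKM in 24C (adjusted p = 2.17e-05). Members of one family thus went in opposite directions. Of 44 wall genes that the study listed for their response to PBZ, 31 were tested, 27 rose and none fell, but only 10 reached 1 RPKM in both groups.

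**Figure D4:**
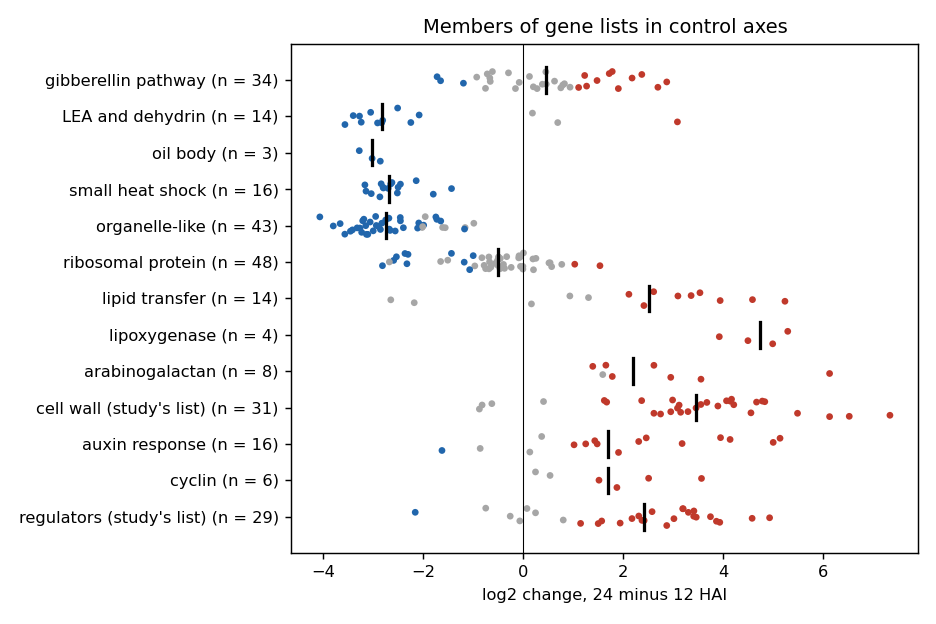
Log2 change from 12 to 24 HAI of the tested members of each gene list. Each point is 1 gene (red, rose; blue, fell; grey, below the limits) and the black bar is the median of the list. The medians of the LEA, oil body and small heat shock lists lie below 0, and those of the lipid transfer, wall and auxin lists lie above it.

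Genes of the cell cycle and cytoskeleton also rose in part. Cyclins drive the steps of the cell cycle, and 4 of 6 tested rose, 3 of 5 on chromosome 1, with a median of 1.69. Rises made up 18.5% of all genes, and only 4 of the 6 cyclins reached 1 RPKM in both groups. The largest change was that of the P-type cyclin Glyma.03G033900, from 0.632, 1.09 and 0.941 RPKM to 12.5, 10.4 and 11.2 (3.57 ± 0.20, adjusted p = 9.54e-06). The mitotic cyclin B2;3, Glyma.01G159700, went from 0.301, 0.184 and 0.176 RPKM to 1.25, 2.15 and 1.8 (2.51 ± 0.32, adjusted p = 0.000342). The cyclin D1;1 of G1 phase, Glyma.01G035600, went from 2.00, 1.22 and 1.39 RPKM to 4.08, 5.14 and 4.30 (1.52 ± 0.21, adjusted p = 0.000459). Groups did not overlap in the 3.

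For DNA replication 2 of 6 tested genes rose and 1 fell, against 18.5% and 9.02% of all genes, and the median of 0.08 was that of all genes. POLA1, the catalytic subunit of DNA polymerase alpha, Glyma.01G187400, went from 5.39, 6.72 and 6.49 RPKM to 12.5, 14.3 and 16.5 (1.20 ± 0.14, adjusted p = 0.000194), and the single-strand binding subunit RPA70, Glyma.05G020600, from 6.36, 4.99 and 4.39 to 19, 21.3 and 24.1 (2.02 ± 0.15, adjusted p = 3.35e-05). The alpha tubulin Glyma.01G197500, a subunit of microtubules, went from 0.647, 0.776 and 0.996 RPKM to 6.88, 6.49 and 6.79 (2.93 ± 0.18, adjusted p = 1.37e-05).

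Of 4 histone genes 2 fell and none rose, beside 9.02% and 18.5% of all genes. Neither of the 2 on chromosome 1 was called. Histone H3 Glyma.11G241700 had 64.9, 54.6 and 77.7 RPKM in 12C and 27.9, 29.7 and 33.5 in 24C (-1.10 ± 0.14, adjusted p = 0.0003). Histone H2A Glyma.06G071500 had 18.4, 15.8 and 22.8 RPKM against 7.43, 8.40 and 10.2 (-1.12 ± 0.16, adjusted p = 0.000672). Both were separated between the groups, and both fell short of the limit of 1 without replicate 3 of 12C or against replicate 2 alone.

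Of 8 tested photosynthesis genes 2 rose and 4 fell, beside 18.5% and 9.02% of all genes, and of the 4 on chromosome 1 2 rose and 1 fell. Only 4 of the 8 reached 1 RPKM in both groups. Glyma.13G028200 and Glyma.13G088500 could be tested only through 12 HAI. PsbO-2 of the oxygen-evolving complex, Glyma.01G180800, went from 1.04, 1.92 and 1.93 RPKM to 9.65, 19.9 and 15.5 (3.116 ± 0.31, adjusted p = 0.000108). The light-harvesting protein Glyma.01G115900 went from 3.94, 6.78 and 7.90 RPKM to 11.2, 26 and 17.3 (1.51 ± 0.34, adjusted p = 0.00551), a call lost against replicate 2 of 12C alone (1.33, adjusted p = 0.0755). Replicate 1 of 24C was the lowest of its group for both, and the means at 36 HAI were 85.3 ± 7.11 and 146 ± 19 RPKM (SD, n = 3). Of the 4 that fell, 3 bore names of genes that the chloroplast genome encodes, among them Glyma.13G028200, a psbA copy, with 16.5, 0.883 and 7.75 RPKM against 0.124, 0.196 and 0.215, and Glyma.13G088500, a photosystem I subunit copy, with 22.7, 1.72 and 5.02 RPKM against 0 in all of 24C. Replicate 2 was the lowest library of 12C in both.

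Hormone genes, except those of gibberellin, were known mostly through the study's lists of genes that respond to PBZ. Auxin drives elongation, and its Aux/IAA proteins repress auxin response factors until auxin removes them. Of 16 tested auxin-response genes 12 rose and 1 fell, beside 18.5% and 9.02% of all genes, with a median of 1.69. On chromosome 1 alone 3 of 5 rose. Only 7 of the 16 reached 1 RPKM in both groups. The count of rises was 8 under quantile normalization. IAA14, Glyma.19G161100, went from 0.280, 0.25 and 0.283 RPKM to 17, 10.2 and 12.5 (5.14 ± 0.21, adjusted p = 4.06e-06). IAA19, Glyma.15G012800, went from 0.745, 0.522 and 0.288 RPKM to 10.4, 10.8 and 9.58 (4.14 ± 0.27, adjusted p = 1.87e-05). IAA9, Glyma.01G019400, singled out after its values were seen, was the abundant one, going from 9.16, 9.63 and 9.20 RPKM to 32.9, 35.5 and 37.4 (1.91 ± 0.08, adjusted p = 4.64e-06). Every library of 24C exceeded every library of 12C in these genes.

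Of 6 tested abscisic acid genes 5 rose and 1 fell, beside 18.5% and 9.02% of all genes. Only 1 of the 6 reached 1 RPKM in both groups. NCED3 makes the first committed precursor of abscisic acid, and Glyma.08G176300 of this name went from 0.0379, 0.175 and 0.270 RPKM to 3.93, 4.6 and 5.10 (4.26 ± 0.38, adjusted p = 6.1e-05). HAB1-like Glyma.09G066500, a protein phosphatase 2C that blocks abscisic acid signalling, went from 0.276, 0.467 and 0.454 RPKM to 8.44, 6.48 and 7.16 (3.92 ± 0.22, adjusted p = 1.01e-05). A transcription factor of the response, ABF1, Glyma.02G131700, went from 0.124, 0.0659 and 0.0643 RPKM to 1.86, 1.87 and 1.8 (3.41 ± 0.31, adjusted p = 6.54e-05). NCED3, this HAB1-like gene and ABF1 could be tested only through 24 HAI and had to differ in that direction. The member that reached 1 RPKM in both groups, named for that reason, went the other way. This receptor gene, PYL5 Glyma.11G233300, went from 4.70, 4.34 and 5.34 RPKM to 1.38, 1.25 and 1.71 (-1.67 ± 0.17, adjusted p = 0.000116).

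Among 7 cytokinin genes, which are response regulators, 5 rose and 1 fell, beside 18.5% and 9.02% of all genes. Of the 7, 3 reached 1 RPKM in both groups. The response regulator 3 gene Glyma.08G292400 went from 0.365, 0.107 and 0.467 RPKM to 5.38, 5.47 and 4.86 (3.81 ± 0.37, adjusted p = 9.12e-05), while response regulator 17, Glyma.06G142300, went from 1.36, 1.42 and 2.40 RPKM to 0.230, 0.307 and 0.225 (-2.33 ± 0.31, adjusted p = 0.000434). ACS8, which makes the precursor of ethylene, rose in both copies, Glyma.05G108900 by 3.25 ± 0.39 and Glyma.17G158100 by 2.19 ± 0.37. The change of Glyma.17G158100 was below the limit with a pseudocount of 1 (0.85) and under quantile normalization (0.96). The jasmonate repressors JAZ1, Glyma.11G038600, and JAZ12, Glyma.17G043700, rose by 2.97 ± 0.41 and 3.04 ± 0.49. All 4 of these ACS8 and JAZ genes were under 0.5 RPKM in every library of 12C and could be tested only through 24 HAI.

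Of 8 tested brassinosteroid genes, which all reached 1 RPKM in both groups, 1 fell and none rose, beside 9.02% and 18.5% of all genes, with a median of -0.19. BR6OX2 catalyses the last steps of brassinolide synthesis, and Glyma.08G250000 of this name went from 4.05, 3.69 and 3.87 RPKM to 1.22, 1.86 and 1.46 (-1.32 ± 0.18, adjusted p = 0.000483).

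Of 45 transcription factor genes listed by the study for their response to PBZ, 29 were tested. Of these 22 rose and 1 fell, beside 18.5% and 9.02% of all genes, but only 9 reached 1 RPKM in both groups. MYB61, Glyma.10G142200, went from 0.0593, 0.0385 and 0.164 RPKM to 6.92, 5.05 and 4.45 (4.93 ± 0.33, adjusted p = 1.85e-05). Transcription factors of chromosome 1 were not chosen by a response, and 19 of the 82 tested rose and 5 fell. That is 29.3% called, near the 27.5% of all genes, and their median was 0.40. An HD-ZIP factor, Glyma.01G044600, went from 5.03, 5.61 and 5.73 RPKM to 38.2, 30.2 and 34.1 (2.62 ± 0.11, adjusted p = 4.34e-06). A bHLH factor, Glyma.01G198100, went from 0.0294, 0.0905 and 0.0759 RPKM to 2.71, 4.10 and 2.59 (4.28 ± 0.32, adjusted p = 3.14e-05), and a GRF factor, Glyma.01G148600, fell from 45.9, 53.8 and 50.3 RPKM to 23.8, 17.6 and 14.8 (-1.43 ± 0.17, adjusted p = 0.000209). These 3 were singled out after their values were seen.

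The gibberellin genes were listed by role rather than by response. The list had 40 members from synthesis to signalling, of which 34 were tested, 27 reached 1 RPKM in both groups, 11 rose, 3 fell and 20 passed neither limit. The median change was 0.46, against 0.08 over all genes, and 32.4% rose against 18.5%. Levels below are RPKM and so are set per length of transcript.

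Gibberellin is made from geranylgeranyl diphosphate by CPS and KS, which close its rings, and by the oxidases KO and KAO. The CPS gene Glyma.03G154700 went from 0.441, 0.262 and 0.346 RPKM to 1.99, 1.84 and 1.89 (2.18 ± 0.25, adjusted p = 0.000216), while the other, Glyma.19G157000, changed by 0.38 ± 0.20 (adjusted p = 0.135). The KAO2 gene Glyma.15G135200 went from 1.8, 3.04 and 2.33 RPKM to 13.4, 17.5 and 16.4 (2.69 ± 0.20, adjusted p = 2.79e-05). Its counterpart KAO1, Glyma.09G029400, had 24.3, 32.7 and 26.6 RPKM in 12C and 26.2, 28.2 and 24.2 in 24C (-0.08 ± 0.12, adjusted p = 0.584). The groups overlapped for the more abundant KAO gene and were far apart for the other.

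The KO1 gene Glyma.13G371400 had 10.6, 13 and 10.2 RPKM in 12C and 20.7, 22.7 and 21.3 in 24C (0.94 ± 0.11, adjusted p = 0.000232), separate groups but short of the limit of 1. The rarer KO1 gene Glyma.15G002200 went from 0.683, 0.466 and 0.264 RPKM to 1.41, 1.08 and 1.07 (1.23 ± 0.34, adjusted p = 0.0143), and its change was 0.94 without replicate 3 of 12C. The KS1 genes Glyma.08G163900 and Glyma.15G263300 changed by 0.46 ± 0.12 and 0.82 ± 0.28 and passed no limit of size.

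Active gibberellins are finished by the GA20 and GA3 oxidases. GA3OX1 Glyma.13G361700 was the most abundant gene of synthesis, with 37.1, 46.7 and 36.9 RPKM in 12C and 55.5, 58.6 and 50.5 in 24C (0.45 ± 0.11, adjusted p = 0.00905), a separation with a change below the limit. The second GA3OX1 gene, Glyma.15G012100, had 18.1, 21.4 and 17.8 RPKM against 21.0, 21.8 and 10.9 (-0.16 ± 0.25, adjusted p = 0.606), where replicate 3 of 24C was the low one. GA20OX2 Glyma.09G149200 had 9.17, 10.02 and 9.70 RPKM against 10.7, 11.3 and 11.3 (0.20 ± 0.09, adjusted p = 0.0717). The GA20 oxidases Glyma.06G155000 and Glyma.10G241100 were under the filter, with means of 0.0078 and 0.0084 RPKM in 12C and 0.956 and 0.925 in 24C.

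The GA2 oxidases remove active gibberellin, and they were split: of 6 tested 3 rose and 2 fell, beside 18.5% and 9.02% of all genes. Of the 6, 5 reached 1 RPKM in both groups. GA2OX1 Glyma.13G259400 went from 1.22, 2.98 and 2.35 RPKM to 6.20, 15.7 and 13.8 (2.37 ± 0.41, adjusted p = 0.00152), GA2OX8 Glyma.11G104800 from 2.14, 1.19 and 1.40 to 5.43, 4.83 and 6.35 (1.78 ± 0.23, adjusted p = 0.000334), and GA2OX2 Glyma.15G248400 from 0.777, 0.988 and 1.27 to 3.58, 3.96 and 3.03 (1.72 ± 0.22, adjusted p = 0.000316). In the other direction GA2OX2 Glyma.15G093900 went from 9.62, 12.4 and 14.7 RPKM to 4.49, 1.85 and 5.47 (-1.72 ± 0.37, adjusted p = 0.00434). GA2OX6 Glyma.10G010700 went from 1.36, 1.29 and 1.40 RPKM to 0.476, 0.348 and 0.279 (-1.65 ± 0.27, adjusted p = 0.00117). The GA2OX2 genes thus moved both ways, with the gene that was most abundant at 12 HAI the one that fell. Another GA2OX2 gene, Glyma.13G218200, had 3.68, 4.55 and 4.05 RPKM against 2.58, 1.35 and 5.12 (-0.62 ± 0.41, adjusted p = 0.216) and fell by 1.09 without replicate 3 of 24C. The 3 under the filter, Glyma.07G236100, Glyma.05G130600 and Glyma.13G259500, had means of 0.155, 0 and 0.0646 RPKM in 12C and 0.984, 0.5001 and 0.6996 in 24C.

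The receptor GID1 binds gibberellin and then the DELLA repressors. None of its 5 genes passed the limit of size, and the 3 GID1b genes went one way and the 2 GID1c genes did not follow. GID1b1 Glyma.02G151100 had 10.6, 15.0 and 12.1 RPKM in 12C and 6.89, 6.33 and 6.22 in 24C (-0.93 ± 0.14, adjusted p = 0.00068). GID1b2 Glyma.10G022900 had 19.8, 23.2 and 19.9 RPKM against 12.5, 10.9 and 13.7 (-0.75 ± 0.11, adjusted p = 0.000766), and GID1b3 Glyma.03G148300 had 17, 19.4 and 20.7 against 11.4, 10.9 and 13.5 (-0.67 ± 0.12, adjusted p = 0.00152). In these 3 the groups did not overlap. GID1c1 Glyma.10G158000 had 8.03, 9.68 and 9.20 RPKM against 13.6, 14.1 and 13.9 (0.63 ± 0.10, adjusted p = 0.000923), and GID1c2 Glyma.20G230600 had 8.42, 11.2 and 10.2 against 11.7, 10.3 and 10.3 (0.12 ± 0.13, adjusted p = 0.407). GID1b1 passed the limit at -1.04 without replicate 1 of 12C.

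The DELLA proteins restrain growth until gibberellin and GID1 lead to their removal, and RGL2 is the member that holds back germination in Arabidopsis. Of 10 tested DELLA genes 5 rose and 1 fell, beside 18.5% and 9.02% of all genes. Only 7 of the 10 reached 1 RPKM in both groups. RGL1 Glyma.05G045300 and GAI Glyma.04G150500 could be tested only through 24 HAI, and RGL1 Glyma.17G127500 only through 12 HAI. RGL2 Glyma.11G216500 was the most abundant RGL2 gene, with 19.6, 21.6 and 19.3 RPKM in 12C and 54.8, 56.5 and 57.4 in 24C (1.48 ± 0.08, adjusted p = 8.16e-06). RGL2 Glyma.18G040000 went from 3.97, 4.43 and 4.96 RPKM to 18.2, 16 and 16.5 (1.90 ± 0.11, adjusted p = 1.26e-05), while the remaining RGL2 gene, Glyma.15G141400, had 3.2, 2.95 and 3.33 RPKM against 2.82, 2.33 and 2.54 (-0.30 ± 0.14, adjusted p = 0.10). The replicates of the first 2 were tightly grouped.

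The RGL1 genes went apart: Glyma.05G045300 rose from 0.0285, 0.0886 and 0.0729 RPKM to 1.08, 1.32 and 0.879 (2.87 ± 0.38, adjusted p = 0.00042), and Glyma.17G127500 fell from 1.75, 1.94 and 2.03 RPKM to 1.26, 0.621 and 0.583 (-1.20 ± 0.30, adjusted p = 0.00865). RGA Glyma.06G213100 rose by 1.11 ± 0.18 and GAI Glyma.04G150500 by 1.27 ± 0.40 (adjusted p = 0.0233), the latter lost, among other settings, without replicate 2 or replicate 3 of 12C. The other RGA genes changed by 0.28 ± 0.14 (Glyma.05G140400), 0.79 ± 0.14 (Glyma.08G095800) and -0.66 ± 0.17 (Glyma.10G190200). The GAI gene Glyma.20G200500 was under the filter, with means of 0.712 and 0.597 RPKM. The transporters of the NPF3.1 type, Glyma.03G122500 and Glyma.03G123000, changed by 0.75 ± 0.24 and -0.72 ± 0.09.

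**Figure D5:**
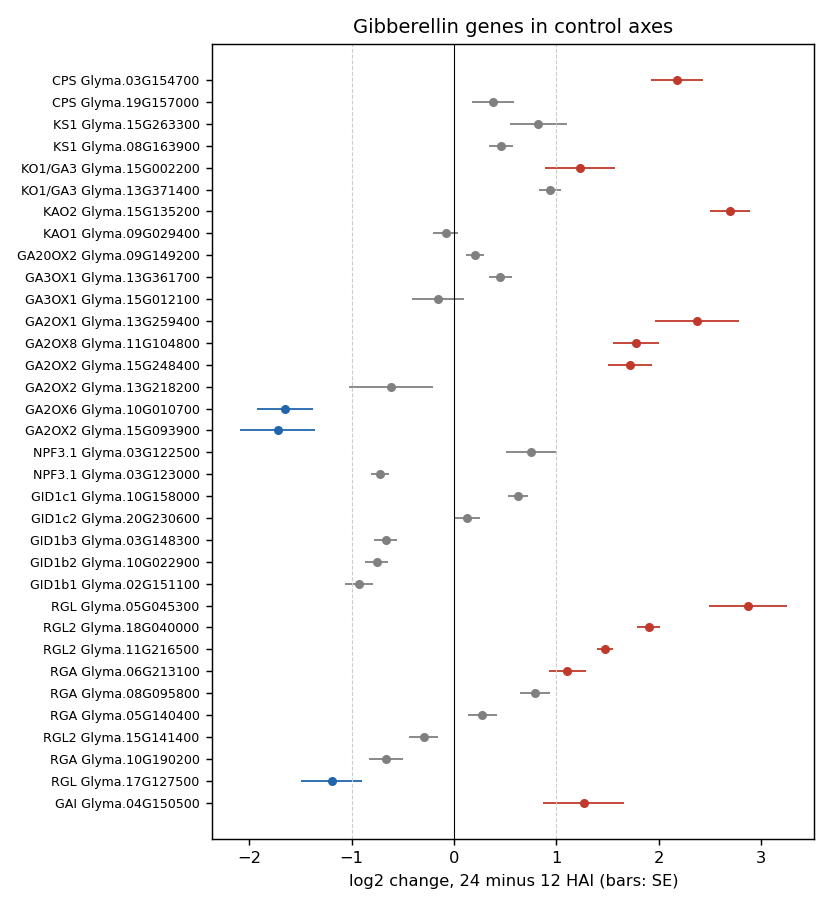
Log2 change from 12 to 24 HAI of the 34 tested gibberellin genes, grouped by role. Points are changes, bars are 1 standard error and dashed lines mark changes of 1 and -1. CPS, KAO2, 3 GA2 oxidase and 5 DELLA genes lie past the upper line with KO1, and all 5 GID1 genes lie between the lines.

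The count of the gibberellin list moved with the scale. With a pseudocount of 1 in place of 0.1, 7 gibberellin genes rose and 1 fell, under quantile normalization 8 rose and 4 fell, and with the replicate number as a block 10 rose and 3 fell, the GAI gene being lost at an adjusted p of 0.0513. Against replicate 2 of 12C alone 4 calls were lost at changes that stayed above 1 in size: GA2OX1 Glyma.13G259400 (1.86, adjusted p = 0.0509), GA2OX2 Glyma.15G093900 (-1.76, adjusted p = 0.0772), RGL1 Glyma.17G127500 (-1.22, adjusted p = 0.0993) and GAI Glyma.04G150500 (1.26, adjusted p = 0.0828).

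The same interval under PBZ gave 8384 called genes of 31495 tested, 26.6%. Of the 5865 genes that rose in control axes 76.4% also rose under PBZ, 83.1% of the PBZ rises, and of the 2862 that fell 72.3% also fell, 69.1% of the PBZ falls. Opposite calls were made for 32 genes. LEA genes had a median of -4.09 under PBZ (11 of 13 tested fell), oil body genes -3.76 and small heat shock genes -3.28 (16 of 16 fell). Lipid transfer genes had a median of 1.94 and wall genes of the PBZ list 2.54. The gibberellin list had 11 rises and 3 falls in each condition, of 34 genes tested in control and 32 under PBZ. These totals were made up differently. Of the DELLA genes 5 of 10 tested rose and 1 fell in control, against 3 of 8 and 0 under PBZ. The GA2 oxidases had 3 rises and 2 falls in control, against 4 and 2. GID1b1 passed the limits only under PBZ (-1.48, against -0.93 in control). Differences between the conditions in these medians and counts were not tested.

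The difference itself was tested gene by gene, as the change in control minus the change under PBZ. Of 32287 genes tested 1 was called, 0.0031%, and 3212 had an unadjusted p under 0.05. The median standard error of a difference was 0.24, and 90% of the differences lay between -0.66 and 0.74. The count was 92 when replicate 2 of 12C was left out, and 1 to 6 when any other of the 12 libraries was. The difference for KAO2 Glyma.15G135200 was 0.79 (adjusted p = 0.623), for IAA14 Glyma.19G161100 1.81 (adjusted p = 0.404) and for BGLU17 Glyma.15G271000 1.73 (adjusted p = 0.455). These values passed no limit, and a p above it does not show that the changes were the same.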

How the data were processed

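Poly(A) RNA libraries of soybean axes (TruSeq RNA v2) were sequenced single-end. The authors removed ribosomal RNA reads, aligned to Wm82.a2.v1 with Novoalign 3.06.05, kept uniquely mapped reads and deposited RPKM values from Cufflinks 2.1.1 with bias correction and a first-strand setting. The kit itself does not mark strand, so overlapping antisense genes cannot be told apart. Counts were not used here and RPKM keeps no read total, so no counting interval is given. Low-value spacing gave relative depth only, from values under 0.2 RPKM.

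From the RPKM table, log2(RPKM + 0.1) of the 6 control libraries was fitted with limma 3.58.1 in R 4.3.3 (empirical Bayes with trend, Benjamini-Hochberg adjustment), over genes whose mean reached 1 RPKM at either time. A call needed an adjusted p of at most 0.05 and a log2 change of at least 1. The fit was tested on simulated data. The difference between conditions was a contrast over 12 libraries.

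Members and gene lists were chosen with earlier results of these data known. Genes were named by rule: the 3 largest rises and falls, the 10 largest of each among described genes and the 3 highest in level. All gibberellin genes, up to 4 per other list and the 3 largest differences from PBZ each way were added. Only called genes whose groups do not overlap were eligible, other than gibberellin genes, differences from PBZ and members of lists without a call. Genes named outside the rule are marked. Keyword lists for seed storage proteins and raffinose enzymes found no described gene. Alternatives changed the pseudocount, filter, scaling, samples, weights, trend and block, and left out each replicate. Sequences were not used here, and motif searches in promoters were not run.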

Additional observations from a re-analysis of the deposited data

Results flagged for a closer look

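Glyma.16G093500, which has no description here, was picked out because its change from 12 to 24 HAI differed between control and PBZ axes by the test of the difference itself. It had 8.45, 3.67 and 3.55 RPKM in 12C and was listed at 0 in all 3 libraries of 24C. Under PBZ the order was the reverse, with 0 in all 3 libraries at 12 HAI and 13.1, 2.06 and 3.35 RPKM at 24 HAI. The change in control minus the change under PBZ was -11.15 ± 0.80 on the log2(RPKM + 0.1) scale (limma adjusted p = 0.000421), a value that depends on the pseudocount because 6 of the 12 libraries are at 0. With a pseudocount of 1 no gene was called.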

How the results depend on the processing

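With the filter raised to 5 RPKM 5089 genes were called, 3063 of them up, and with no minimum change 20383 passed, 11599 up and 8784 down. The difference from PBZ gave 0 calls with a pseudocount of 1 (3212 genes had an unadjusted p under 0.05 at 0.1) and 1 to 92 when a replicate was left out, 92 without replicate 2 of 12C. Leaving out each control replicate gave 8311 to 9233 calls, 5622 to 6187 up and 2689 to 3046 down, and replicate 2 as the only library of 12C gave 7794 (7168 shared with the 8727). Quantile normalization gave 8522 calls, 7293 of them shared, and moved the median of all genes from 0.08 to -0.04. Other settings gave 6295 (pseudocount of 1) to 11343 (no filter on low values).

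Same-numbered libraries of 12C and 24C deviated together only weakly (r of 0.026, 0.091 and 0.055), though each correlated best with its own number. The labels give no shared batch, so no pairing was assumed. The replicate block gave 8795 calls, 5902 up and 2893 down, and 1 for the difference from PBZ.

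Of 156 named genes 132 were called. The call held in every setting for 107, was lost in at least 1 for 25 (17 against replicate 2 of 12C alone, 12 with a pseudocount of 1) and turned direction for none. Of the 24 not called 16 were called in at least 1 setting, most of them only when the minimum change was dropped. Uncalled genes that changed sign were Glyma.08G171200 (from -0.0892 without replicate 3 of 12C to 3.8444 without replicate 1 of 12C), Glyma.09G029400 (from -0.1731 without replicate 1 of 12C to 0.0395 without replicate 2 of 12C), Glyma.15G012100 (from -0.3302 without replicate 2 of 24C to 0.17 without replicate 3 of 24C), Glyma.15G263300 (-0.0422) and Glyma.19G157000 (-0.21), both under quantile normalization, and Glyma.20G230600 (-0.0542 against replicate 2 of 12C alone). The cause was not tested. Read depth, unknown in RPKM beyond its relative size, limits what can be said of genes near 0.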

Other observations

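The remaining large differences between the conditions were in genes without a description that passed no adjusted limit. Glyma.12G040700 had 356, 32.6 and 124 RPKM in 12C, under 0.0001 in all of 24C, 229, 0.000355 and 139.7 at 12 HAI under PBZ and 239, 264 and 32.5 at 24 HAI under PBZ (difference -13.25, adjusted p = 0.329). Glyma.10G224800 was listed at 0 in all of 12C, had 7.55, 6.03 and 2.19 RPKM in 24C, 2.72, 6.94 and 7.47 at 12 HAI under PBZ and 0, 2.196 and 0 at 24 HAI under PBZ (difference 9.80, adjusted p = 0.126). Glyma.08G171200 had 23.4 and 15.3 RPKM in replicates 1 and 2 of 12C but 0.000825 in replicate 3, and 21.0, 16.1 and 16.7 in 24C. Whether reads of near-identical copies were assigned to these genes was not tested.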
